A study of Mus musculus with 4 samples.

Results

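The 42 genes described here encode the machinery of the G2 phase and of mitosis, and 41 of them were measured, out of 18193 genes on the arrays. They were listed by name for their known roles in cell division, with earlier results of these data known, and each was read from the probe set with the highest mean log2 signal among those the array annotation assigns to that gene alone. Ccnb1, the gene of cyclin B1, was not analysed here, because no probe set is assigned to it alone in the annotation used.

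Dividing cells make these transcripts in a burst that starts late in S phase, peaks in G2 and mitosis and ends as the daughter cells enter G1. Cyclins A and B activate the kinase Cdk1 to start mitosis, polo and aurora kinases and kinesin motors build the spindle, the spindle checkpoint holds the cell until every chromosome is attached, and the anaphase-promoting complex then destroys cyclins to let it exit. In skin the cells that divide most are basal keratinocytes of the epidermis and matrix cells of growing hair follicles, and leukocytes that enter inflamed skin can divide as well.

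Skin of female wild type BALB/c mice was profiled on 3′ expression arrays, 2 from skin given the vehicle ethanol and 2 from skin given MC903. MC903 is calcipotriol, an analogue of vitamin D, and its application to mouse skin causes inflammation. Mice of both groups had been sensitised through the ear skin with ovalbumin together with MC903, so the vehicle mice had also met MC903 earlier, and both had been challenged with ovalbumin by mouth before the treatment and again after it. The age of the mice and the time between the last application and sampling are not given in the sources used here, and no source states whether each sample is a different mouse, so the p-values reflect only how far these samples spread, which may be technical.

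Signals are linear array intensities, scaled on every array to a trimmed mean of 500, with medians of 90.2 to 109 over all probe sets. The epidermal genes Krt5, Krt14, Krt1, Krt10, Lor, Flg, Dsg1a and Krtdap, which mark the labelled tissue, summed to signals of 188379 to 245670 per array, and all 8 lay above the TrpnX controls, probe sets for bacterial transcripts that are taken here as background and read 1.55 to 24.0. The signals of the 41 mitotic genes ran from 70.6 to 3517, above those controls on every array.

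MC903-treated skin carried more transcript of nearly all of these genes, and the 2 MC903 samples differed clearly in how much more. Of the 41 genes, 37 were higher on both MC903 arrays than on both vehicle arrays, a share of 90.2% against 21.6% of all genes, and 1 was lower on both (28.2% of all genes). The median difference, as log2(signal + 16), was 0.81, or 1.75-fold, against -0.04 over all genes. It was 1.15 on MC903 replicate 1 and 0.35 on MC903 replicate 2. In a tissue sample, more dividing cells and more mitotic RNA per dividing cell cannot be told apart.

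No single gene passed the test. With limma over all 18193 genes and Benjamini-Hochberg adjustment at 0.05, 0 of the 41 were called (0.0% of all genes higher and 0.0% lower), the smallest adjusted p being 0.211 for Hmmr. Without adjustment, 13 of the 41 were higher at a p below 0.05 and 0 lower, against 6.82% of all genes higher and 8.39% lower. With a prior variance that follows the signal, limma called 0 of them, against 0.539% of all genes higher and 0.385% lower, and 21 were higher and 0 lower at an unadjusted p below 0.05, against 7.67% and 9.62% of all genes. The gap between the MC903 samples is part of the spread that this test sets each difference against. For 1 gene, the smallest two-sided p that exact permutation of these 4 arrays allows is 0.333.

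**Figure D1:**
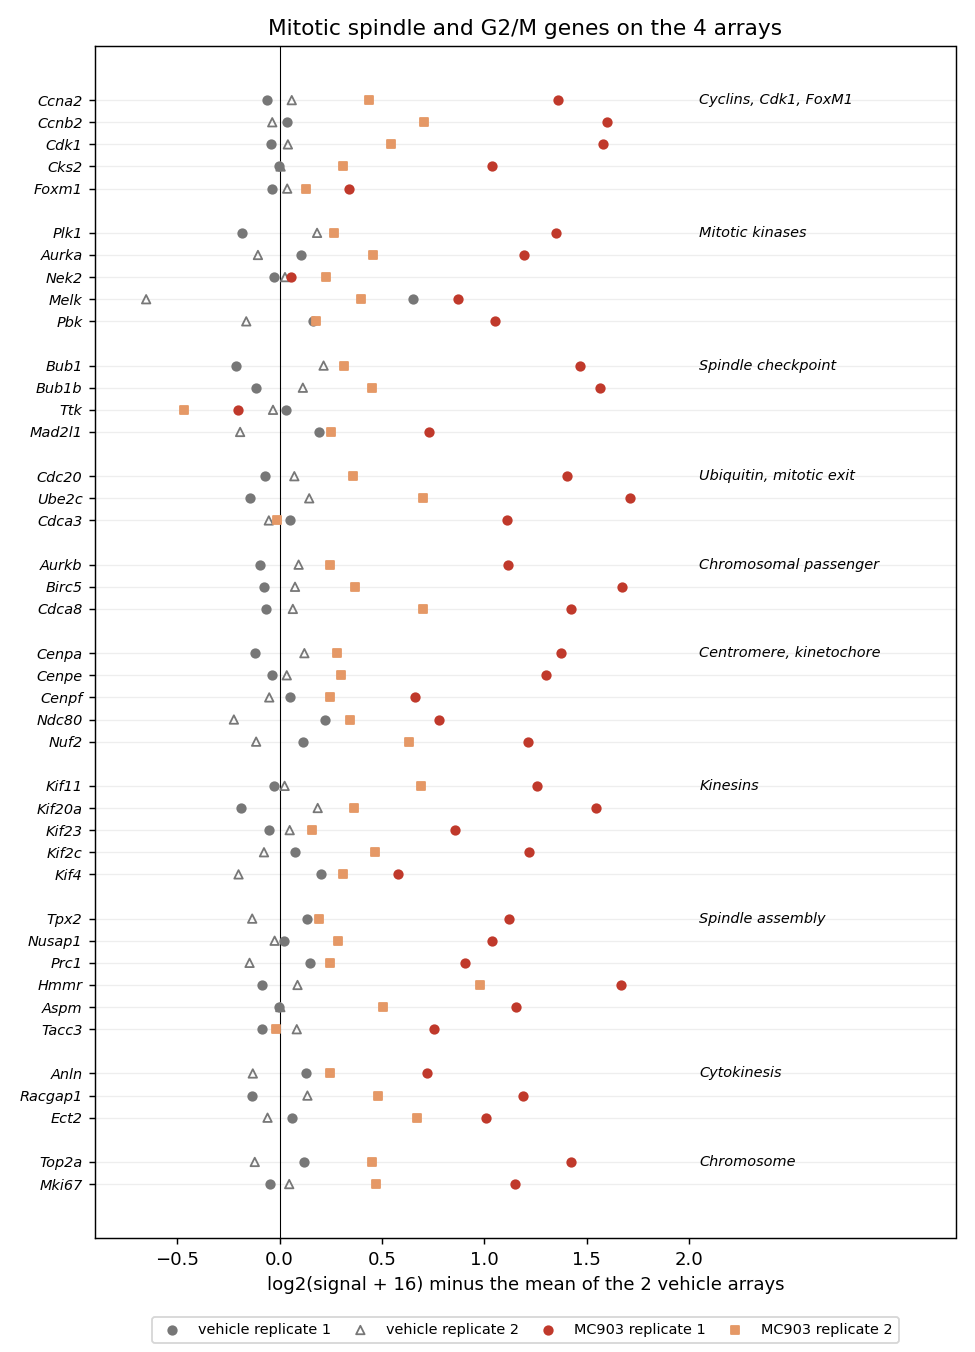
Each row is a gene, grouped by role, and each point is an array, placed by its log2(signal + 16) minus the mean of the 2 vehicle arrays (grey circles and open triangles for vehicle, red circles and orange squares for MC903 replicates 1 and 2). MC903 replicate 1 lies to the right of replicate 2 for 40 of 41 genes, and both lie to the right of both vehicle arrays for 37.

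The gap between the MC903 samples had 1 direction for almost the whole set. MC903 replicate 1 stood above replicate 2 for 40 of the 41 genes, against 48.1% of all genes, and at least 2-fold above it for 10, against 3.46%. The ratio of the signals of replicate 1 to those of replicate 2 had a median of 1.69, with 0.883 for Nek2 as the lowest and 2.50 for Birc5 as the highest. The vehicle arrays showed no such ordering, since 23 of the 41 genes were higher on replicate 2 and the median ratio of replicate 2 to replicate 1 was 1.04. On MC903 replicate 1, 29 of the 41 genes were at least 2-fold above the vehicle mean, against 5.02% of all genes. On MC903 replicate 2 there were 0, against 3.73%, and accordingly 0 of the 41 were 2-fold higher on each MC903 array than on each vehicle array, against 1.16% of all genes. These counts compare single arrays, so they have no replicate check.

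**Figure D2:**
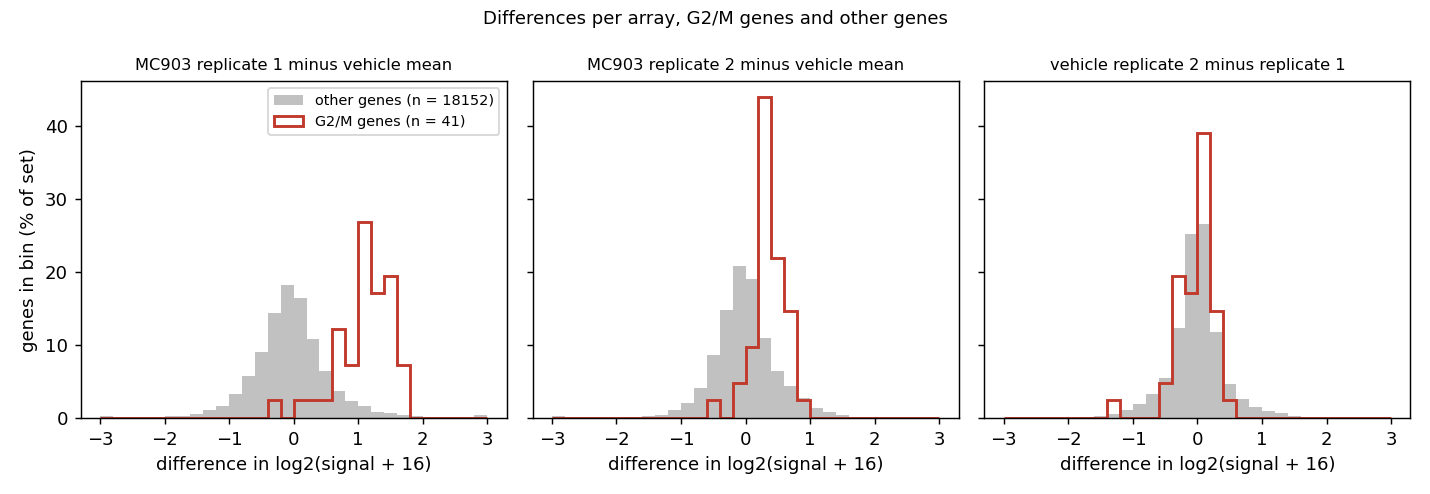
Histograms of the difference in log2(signal + 16) for the 41 G2/M genes (red line) and the 18152 other genes (grey), each as a percent of its set in bins 0.2 wide, with differences beyond 3 drawn in the last bin. The red line is centred near 1.15 on MC903 replicate 1, near 0.35 on replicate 2 and near 0 for the difference between the vehicle arrays (median 0.05).

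Among the genes that drive entry into mitosis, all 5 measured were higher on both MC903 arrays, with a median difference of 0.90. Signals are given in the order of the replicates, and each difference is on the log2(signal + 16) scale with its SE, from 2 arrays per group. Cdk1, the mitotic kinase, had 622 and 659 in vehicle and 1945 and 942 in MC903 (1.06 ± 0.38). Ccnb2, a B-type cyclin that activates it, had 397 and 377 in vehicle and 1205 and 642 in MC903 (1.15 ± 0.34). Ccna2, which acts in S phase and G2, had 795 and 865 in vehicle and 2155 and 1127 in MC903 (0.90 ± 0.35). For these 3 genes the groups do not overlap, and MC903 replicate 2 stands nearer to the vehicle mean than to MC903 replicate 1. Cks2, a small subunit that docks Cdk1 to its substrates, had 1701 and 1713 in vehicle and 3517 and 2123 in MC903 (0.67 ± 0.29). Foxm1, the transcription factor that drives many of the genes in the set, had 199 and 210.0 in vehicle and 263 and 225 in MC903. Its difference of 0.23 ± 0.17 was small beside that of the cyclins.

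The mitotic kinases were less even, with a median of 0.63 over 5 genes, 4 of them higher on both MC903 arrays. Plk1, polo-like kinase 1, had 151 and 199 in vehicle and 466 and 212 in MC903 (0.81 ± 0.42). Aurka, the aurora kinase of the spindle poles, had 222 and 189 in vehicle and 489 and 287 in MC903 (0.83 ± 0.30). Pbk, a kinase of mitotic cells, had 777 and 617 in vehicle and 1453 and 785 in MC903, the lower MC903 sample only just above the higher vehicle one. Melk was the gene with the largest gap between the vehicle arrays, 374 and 142, and its MC903 signals of 438 and 310 overlap them. Nek2, a centrosome kinase, had 303 and 315 in vehicle and 322 and 365 in MC903. On the probe sets used, it was the 1 gene of the set with a higher signal on MC903 replicate 2 than on replicate 1. Its dimmer probe sets were split, with MC903 signals of 182 and 113, 65.7 and 119, and 26.3 and 6.48, so this order depends on the probe set.

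The spindle checkpoint held the only gene of the set that was lower on both MC903 arrays. Bub1b, which encodes the checkpoint protein BubR1, had 200.2 and 237 in vehicle and 676 and 304 in MC903 (1.01 ± 0.41). Bub1, its kinase partner, had 177 and 244 in vehicle and 603 and 263 in MC903 (0.89 ± 0.44). Mad2l1, whose protein inhibits Cdc20 until the chromosomes are attached, had 857 and 653 in vehicle and 1252 and 893 in MC903. In all 3 both MC903 samples were above both vehicle samples, and replicate 1 was the higher. Ttk, the kinase Mps1 that starts checkpoint signalling, had 791 and 756 in vehicle and 669 and 556 in MC903, a difference of -0.33 ± 0.18 (limma, adjusted p = 0.447). A dimmer probe set of Ttk went the other way, with 57.5 and 53.4 in vehicle and 92.5 and 79.8 in MC903, so the direction of this gene depends on which probe set is read.

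Of the genes of ubiquitin-dependent control of mitosis, Ube2c, the ubiquitin-conjugating enzyme of the anaphase-promoting complex, had 419 and 516 in vehicle and 1559 and 766 in MC903 (1.21 ± 0.39). Cdc20, the activator of that complex, had 1198 and 1326 in vehicle and 3354 and 1622 in MC903 (0.88 ± 0.39). Cdca3, which works with a ubiquitin ligase that destroys an inhibitor of mitotic entry, had 612 and 568 in vehicle and 1294 and 586 in MC903. Its second MC903 sample lay within the vehicle range, so its difference of 0.55 rested on MC903 replicate 1. The chromosomal passenger complex corrects faulty attachments, and its 3 genes here were higher on both MC903 arrays with a median of 1.02. Birc5, which encodes survivin, had 473 and 527 in vehicle and 1628 and 650 in MC903 (1.02 ± 0.47), the widest ratio between the MC903 samples. Cdca8, which encodes borealin, had 521 and 571 in vehicle and 1488 and 897 in MC903 (1.06 ± 0.29). Aurkb, the kinase of the complex, had 244 and 279 in vehicle and 585 and 312 in MC903.

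All 5 centromere and kinetochore genes were higher on both MC903 arrays, with differences of 0.46 to 0.92. Cenpa, the histone variant that marks centromeres, had 529 and 629 in vehicle and 1521 and 705 in MC903 (0.83 ± 0.41). Nuf2, of the complex that binds microtubules at the kinetochore, had 252 and 213 in vehicle and 559 and 368 in MC903 (0.92 ± 0.26). Its partner Ndc80 had the lowest vehicle signal of the set, with 102 and 70.6 in vehicle and 158 and 112 in MC903. The remaining members, the kinetochore motor Cenpe and the large kinetochore protein Cenpf, differed by 0.80 and 0.46.

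Kinesins are motors that move along microtubules, and all 5 were higher on both MC903 arrays, with differences of 0.44 to 0.97. Kif11, the motor that pushes the spindle poles apart, had 145 and 151 in vehicle and 375 and 248 in MC903 (0.97 ± 0.24). Kif20a, which acts at the spindle midzone, had 159 and 210.4 in vehicle and 565 and 240 in MC903 (0.95 ± 0.45). Kif2c, which takes microtubules apart at centromeres, differed by 0.84 ± 0.30. Kif23 and Kif4, motors of the midzone and of chromosomes, differed by 0.51 and 0.44.

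Hmmr, whose protein binds hyaluronan and spindle microtubules, had the largest difference of the 41 genes. It had 153 and 175 in vehicle and 556 and 339 in MC903, a difference of 1.32 ± 0.28 (limma, adjusted p = 0.211). Its lower MC903 sample was 0.98 above the vehicle mean, the highest value of the set on that array. Both ranks rest on the probe set used, since the dimmer probe sets of Hmmr differed by 0.88, 0.87, 0.80 and -0.03. On those, MC903 replicate 2 stood at 0.67, 0.21, 0.34 and -0.38 from the vehicle mean. Among the other 5 spindle assembly genes, Aspm, a spindle pole protein, had 306 and 308 in vehicle and 703 and 442 in MC903 (0.83 ± 0.27). Tpx2, Nusap1 and Prc1, which nucleate, bundle and cross-link microtubules, differed by 0.66, 0.66 and 0.58, with no overlap between the groups. Tacc3, a microtubule-stabilising protein, had 263 and 297 in vehicle and 482 and 276 in MC903, so the groups overlap.

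All 3 cytokinesis genes were higher on both MC903 arrays, with medians of 1.01 on replicate 1 and 0.48 on replicate 2. Ect2, the exchange factor that switches on the contractile ring, had 360 and 330 in vehicle and 709 and 559 in MC903 (0.84 ± 0.19). Racgap1, which recruits it, had 228 and 278 in vehicle and 595 and 358 in MC903 (0.84 ± 0.30). Anln, the gene of the ring scaffold anillin, had 1490 and 1241 in vehicle and 2250 and 1616 in MC903 (0.48 ± 0.24). Of the chromosome genes, Mki67, the proliferation marker Ki-67, had 1479 and 1580 in vehicle and 3411 and 2126 in MC903 (0.81 ± 0.28). Top2a, the topoisomerase that untangles chromosomes, had 1306 and 1102 in vehicle and 3248 and 1646 in MC903 (0.94 ± 0.37). In both the groups are separate, with MC903 replicate 1 far above the rest.

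Since the array design repeats many genes, the remaining probe sets give a second reading of the set, though from the same RNA. The 41 genes had 93 probe sets, 14 genes having 1 and 27 more than 1. Of the 52 probe sets not used above, 42 had a positive difference and 10 a negative one, with a median of 0.49. Of all 16752 such further probe sets of any gene, 43.0% were positive, with a median of -0.07. Of the 52, 6 lay within the range of the TrpnX controls on every array, so their differences are differences of background. Without them 39 of 46 were positive, with a median of 0.52, and 28 were higher on both MC903 arrays. With them 29 of the 52 were higher on both, against 18% of all 16752, from which background probe sets were not removed. Among the 20 with a signal of at least 100 on every array, 20 were positive, with a median of 0.72, and 17 were higher on both MC903 arrays. Over all genes the shares at that signal were 41.0% and 20.5%. The 10 negative ones were among the 32 with a lower signal on some array. Among these, a probe set of Tacc3 gave 144 and 138 in vehicle and 74.2 and 94.3 in MC903, opposite to the probe set used. It missed the cut at 100 by its MC903 signals alone. A cut on all 4 arrays thus depends partly on the difference itself. For Foxm1, a probe set lay within the range of the TrpnX controls on all 4 arrays, and the further ones above it differed by 0.33 and 0.76, both with signals below 100 on some array. For 8 of the 41 genes the suffix of the probe set used warns that it may also detect other transcripts (Cks2, Nek2, Pbk, Cdca8, Cdc20, Aurkb, Kif2c and Prc1).

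**Figure D3:**
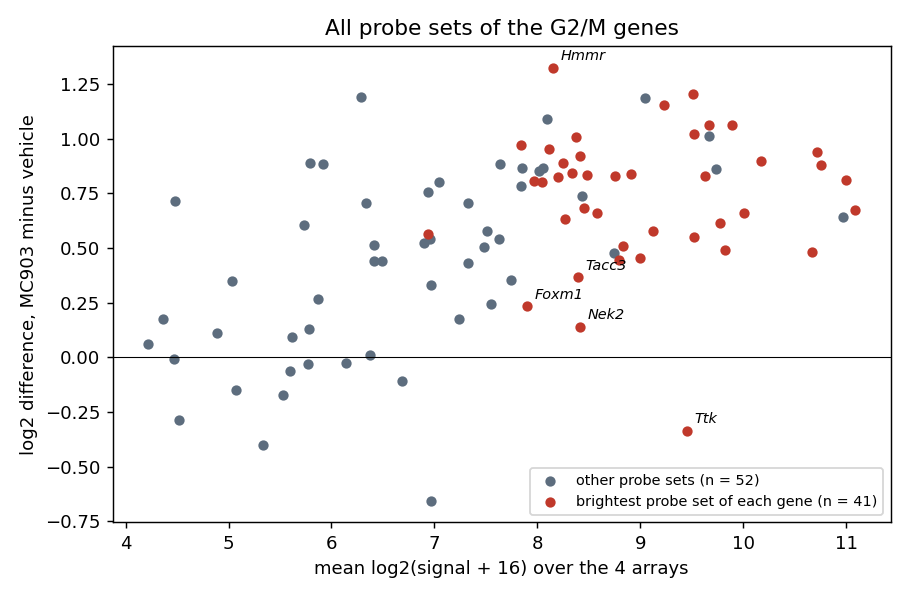
Each point is a probe set, placed by its mean log2(signal + 16) over the 4 arrays and its log2 difference between MC903 and vehicle, red for the brightest probe set of each of the 41 genes and grey-blue for the 52 others. Negative differences lie among the dimmer probe sets, apart from that of Ttk at -0.33.

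Promoters of G2/M genes are known for the cell cycle genes homology region (CHR), bound by the MuvB complex, and for CCAAT boxes, bound by NF-Y. RefSeq promoters on GRCm38.p6, 250 bases before to 50 bases after the start, were held for 35 of the 41 genes, all but Ccna2, Foxm1, Pbk, Aurkb, Kif20a and Tpx2. Shown are the 3 genes with the highest mean signal that hold a CHR (Mki67, Cdc20 and Top2a), Hmmr and Ube2c as the largest differences, and Ttk as the gene on the other side. Capitals mark the CHR, spelled TTTGAA, and the box spelled CCAAT, each on both strands (the reverse of the CHR reads TTCAAA, and that of the box reads ATTGG). The windows are chr7:135716330-135716629 (minus strand) for Mki67, chr4:118437294-118437593 (minus) for Cdc20, chr11:99024140-99024439 (minus) for Top2a, chr11:40733388-40733687 (minus) for Hmmr, chr2:164769679-164769978 (plus) for Ube2c and chr9:83834439-83834738 (plus) for Ttk.
Mki67: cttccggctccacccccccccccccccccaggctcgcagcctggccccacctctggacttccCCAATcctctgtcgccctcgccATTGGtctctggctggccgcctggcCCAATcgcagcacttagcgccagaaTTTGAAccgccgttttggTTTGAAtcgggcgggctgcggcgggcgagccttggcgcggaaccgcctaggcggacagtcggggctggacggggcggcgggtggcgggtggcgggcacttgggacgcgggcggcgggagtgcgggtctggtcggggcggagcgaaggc
Cdc20: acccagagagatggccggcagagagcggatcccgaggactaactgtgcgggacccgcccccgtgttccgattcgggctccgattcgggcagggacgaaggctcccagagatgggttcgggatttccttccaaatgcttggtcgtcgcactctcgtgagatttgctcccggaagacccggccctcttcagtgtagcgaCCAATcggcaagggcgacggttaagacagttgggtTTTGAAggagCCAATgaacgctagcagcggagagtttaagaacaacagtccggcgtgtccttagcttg
Top2a: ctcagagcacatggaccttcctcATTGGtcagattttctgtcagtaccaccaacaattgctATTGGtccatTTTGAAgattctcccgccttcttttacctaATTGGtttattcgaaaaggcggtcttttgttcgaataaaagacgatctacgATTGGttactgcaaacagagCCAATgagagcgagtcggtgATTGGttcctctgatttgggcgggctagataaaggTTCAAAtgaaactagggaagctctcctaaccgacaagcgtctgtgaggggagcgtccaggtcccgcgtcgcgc
Hmmr: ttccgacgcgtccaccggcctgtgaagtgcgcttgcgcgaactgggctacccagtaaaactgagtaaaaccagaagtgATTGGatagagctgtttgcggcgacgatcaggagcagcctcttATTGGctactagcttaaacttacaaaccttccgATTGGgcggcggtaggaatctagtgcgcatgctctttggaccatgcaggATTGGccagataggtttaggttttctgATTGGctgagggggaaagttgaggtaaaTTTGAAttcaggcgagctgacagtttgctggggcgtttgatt
Ube2c: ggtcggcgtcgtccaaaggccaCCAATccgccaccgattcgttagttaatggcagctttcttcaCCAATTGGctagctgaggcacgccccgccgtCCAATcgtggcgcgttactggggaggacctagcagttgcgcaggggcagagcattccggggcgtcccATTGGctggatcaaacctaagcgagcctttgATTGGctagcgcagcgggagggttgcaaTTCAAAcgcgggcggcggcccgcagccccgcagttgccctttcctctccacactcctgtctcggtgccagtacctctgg
Ttk: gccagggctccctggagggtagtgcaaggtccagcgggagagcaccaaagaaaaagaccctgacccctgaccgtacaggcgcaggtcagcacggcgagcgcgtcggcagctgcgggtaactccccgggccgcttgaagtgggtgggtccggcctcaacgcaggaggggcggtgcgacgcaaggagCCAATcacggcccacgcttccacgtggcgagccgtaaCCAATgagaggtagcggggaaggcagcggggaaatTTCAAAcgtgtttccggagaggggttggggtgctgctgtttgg

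The CHR was in a promoter of 25 of the 35 genes (71.4%), and in 27 of their 37 promoters (73.0%) against 17.9% of all 32851 promoters of the same length. CCAAT was in 75.7% of their promoters against 37.4% of all, and both motifs together in 64.9% against 6.95%. Of the CHR matches, counting 1 promoter per gene, 24 of 31 began within 50 bases of the start and 24 of 31 read along the gene's own strand. Where a CCAAT lay before a CHR, their first bases were a median of 32 bases apart over 25 such CHR matches, and 20 to 50 apart in 16. In Cdc20 and in Ttk the spacing was 35, in Hmmr and Ube2c 28, in Mki67 25 and 43, and in Top2a 10 and 35. Position, strand and spacing were not counted over all promoters, so these counts have no share to be set against. Just 1 CHR match overlapped a match of another motif searched. The CHR variant TTTAAA was in 24.3% of the promoters against 13.2% of all, and E2F motifs in 13.5% against 8.07%. The E2F search, on both strands, took the word TTCGCGC, a second form written TTGGCGC, and a further form written TTCCCGC.

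Genes with and without the motif were set beside their differences between MC903 and vehicle. The 25 genes with a CHR had a median difference of 0.83 and the 10 without one 0.67, with no test made. Ttk, lower in MC903 on the probe set used, holds a CHR and 2 CCAAT boxes. Among the other lists, the CHR was in 58.3% of promoters of the other mitotic genes and 18.2% of those of S phase genes. It was in 7.14% of those of the list for the anaphase-promoting complex. E2F motifs were in 59.1% of promoters of S phase genes. Matches are descriptions of the sequence, and binding was not measured.

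**Figure D4:**
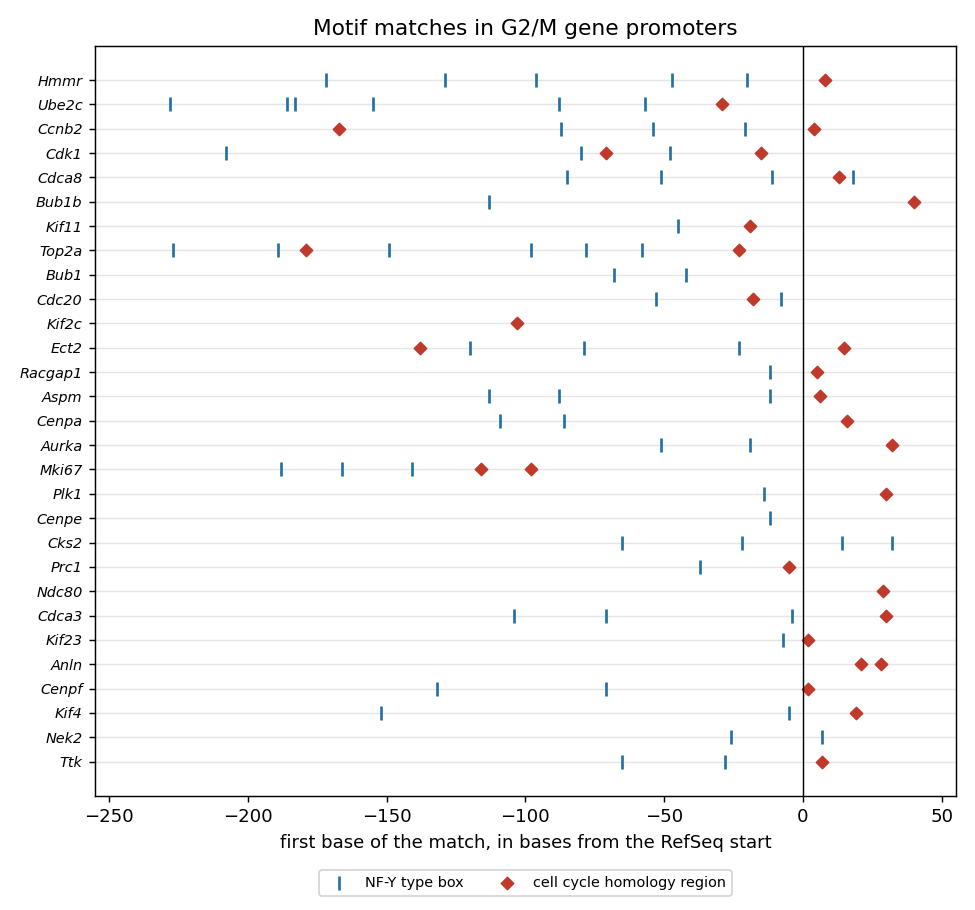
Positions of CHR matches (red diamonds) and CCAAT-box matches (blue ticks, labelled NF-Y type box) in 1 promoter per gene, for genes with at least 1 match, in bases from the RefSeq start, ordered from the largest log2 difference (Hmmr) at the top to the lowest (Ttk) at the bottom. Of 31 CHR matches, 24 began within 50 bases of the start.

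Other genes of the cell cycle were read from lists compiled for comparison. Of 71 measured mitotic genes outside the set, 43 (60.6%) were higher on both MC903 arrays and 2 lower (2.82%), against 21.6% and 28.2% of all genes, with a median difference of 0.47 and medians of 0.77 and 0.17 on MC903 replicates 1 and 2. With limma 0 were called. The brightest of them were Hmgb2, a chromatin protein, at 4315 and 4560 in vehicle and 3899 and 4036 in MC903, and Kpna2, a nuclear import receptor, at 3225 and 3016 in vehicle and 5870 and 4771 in MC903. These went opposite ways, by -0.16 ± 0.15 and 0.76 ± 0.18.

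S phase genes had a smaller median, 0.22 over 46 genes, with 0 called by limma. Of the 46, 26.1% (12) were higher on both MC903 arrays and 4.35% (2) lower, the first share lying near the 21.6% of all genes and the second below their 28.2%. Their medians were 0.43 on MC903 replicate 1 and -0.03 on replicate 2, and 43 of the 46 were higher on replicate 1. Pcna, the sliding clamp of replication, had 8848 and 8418 in vehicle and 10758 and 8409 in MC903, and Mcm7, of the replicative helicase, had 2959 and 3011 in vehicle and 4136 and 2514 in MC903. Both overlap between the groups. The order of the MC903 samples was therefore the same for S phase as for mitotic genes, while replicate 2 stood near vehicle.

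Core subunits of the anaphase-promoting complex, listed together with its activator Fzr1, had a median of -0.05 over 13 genes. The 3 higher (Fzr1 among them) and 3 lower on both MC903 arrays are 23.1% each, near the 21.6% and 28.2% of all genes. Anapc5 and Anapc13, the brightest of them, differed by -0.05 ± 0.16 and -0.15 ± 0.16. Among the 10 measured genes of the MuvB, DREAM and Myb complexes, which regulate G2/M promoters, the median was -0.06, with 10% (1) higher and 30% (3) lower. Rbbp4 and Tfdp1, a histone-binding subunit and the partner of E2F proteins, differed by -0.04 ± 0.17 and 0.23 ± 0.15. Cell cycle inhibitors had a median of -0.09 over 16 genes, with 0 higher and 5 lower, and the 31.2% lower is near the 28.2% of all genes. The brightest of them, the growth-arrest genes Btg1 and Gas1, differed by -0.15 ± 0.17 and -0.19 ± 0.36, with overlap between the groups. Cyclins and kinases of G1, listed together with the transcription factors Myc and Mycn, had a median of -0.04 over 8 genes. Of these, 25% (2) were higher and 37.5% (3) lower, Mycn among the lower. Ccnd2, a D-type cyclin, had 7191 and 7920 in vehicle and 3150 and 4798 in MC903 (-0.95 ± 0.26), while Cdk6, a kinase it binds, had 1940 and 1849 in vehicle and 3852 and 3256 in MC903 (0.90 ± 0.17). Chosen after their values were seen, Ccnd1 differed by -0.75 ± 0.23 and the Cdk inhibitors Cdkn1b (p27) and Cdkn1c (p57) by -0.56 ± 0.16 and -0.97 ± 0.20, and all 3 were lower on both MC903 arrays. In limma 0 genes of these 4 lists were called.

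**Figure D5:**
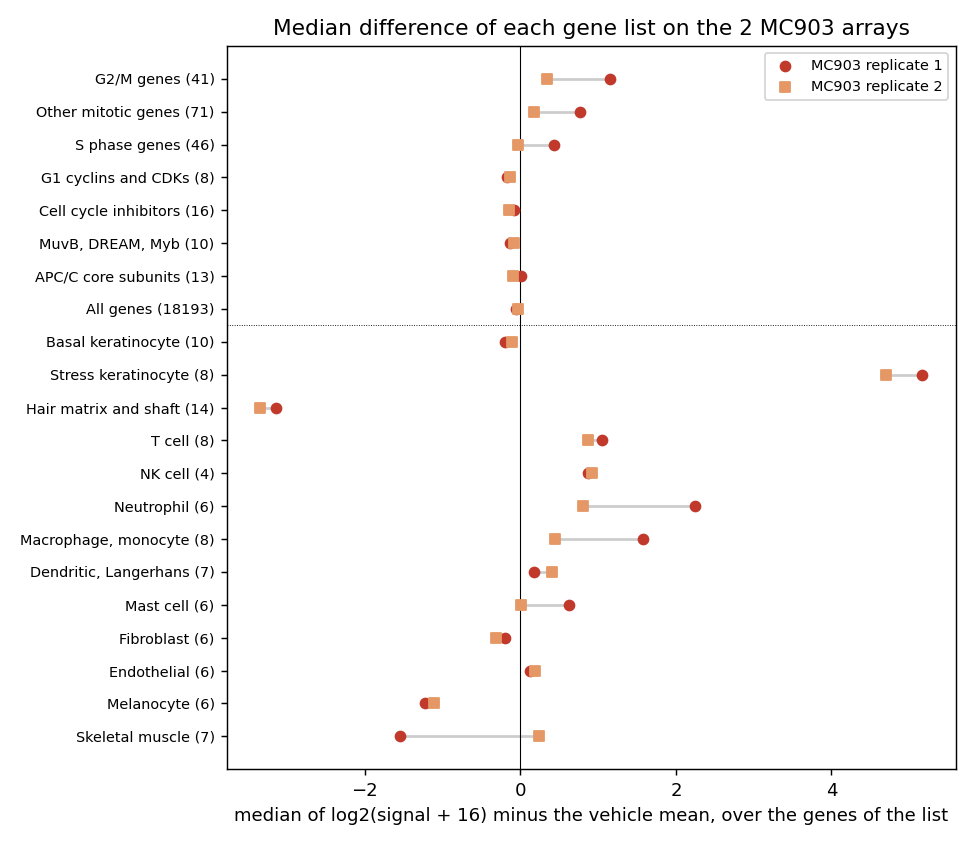
Median of log2(signal + 16) minus the vehicle mean for selected gene lists on MC903 replicate 1 (red circles) and replicate 2 (orange squares). The number of measured genes is in brackets. Cell cycle lists and all genes are above the dotted line and cell type markers below it. The list labelled G1 cyclins and CDKs also holds Myc and Mycn, and that labelled APC/C core subunits also holds the activator Fzr1. Markers of epidermis, B cells, adipocytes, sebocytes and erythroid cells are not drawn. The G2/M genes stand at 1.15 and 0.35. Neutrophil, macrophage, mast cell, T cell and stress keratinocyte markers also stand further right on replicate 1 than on replicate 2. Dendritic and Langerhans markers, among others, stand further right on replicate 2.

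Markers of cell types that skin can hold were measured beside these genes. Of all genes, 21.6% were higher on both MC903 arrays and 28.2% lower. All 8 macrophage and monocyte markers were higher on both MC903 arrays, with summed signals of 19570 and 19807 in vehicle and 42585 and 26747 in MC903, and medians of 1.58 on replicate 1 and 0.45 on replicate 2. Of 6 measured neutrophil markers 4 were higher on both, with summed signals of 1168 and 1727 in vehicle against 64722 and 10710 in MC903, mostly from S100a8 and S100a9, which keratinocytes also make. The macrophage and neutrophil lists order the MC903 samples as the mitotic genes do. By median so do the mast cell list, at 0.62 on replicate 1 and 0.007 on replicate 2, and the T cell list. Some other lists do not, among them dendritic and Langerhans markers, with medians of 0.18 on replicate 1 and 0.40 on replicate 2. Adipocyte markers (0.33 and 1.20) and sebocyte markers (-0.44 and 0.43) also had the higher median on replicate 2. T cell markers were higher on both for 6 of 8, with sums of 1019 and 1135 in vehicle and 2108 and 1876 in MC903, and medians of 1.05 and 0.87.

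All 8 markers of stressed or activated keratinocytes, such as Krt6a and Krt16, were higher on both MC903 arrays. Their summed signals were 22940 and 24703 in the vehicle arrays against 200572 and 123048 in MC903, with medians of 5.17 on replicate 1 and 4.70 on replicate 2, and 7 of the 8 were higher on replicate 1, the order of the mitotic genes. The 10 basal keratinocyte markers had sums of 118295 and 120312 in vehicle and 115033 and 111949 in MC903. Of these, 30% (3) were higher on both MC903 arrays and 60% (6) lower, against 21.6% and 28.2% of all genes. All 14 measured markers of hair matrix and shaft were lower on both MC903 arrays, with sums of 26449 and 45488 in vehicle and 2709 and 2150 in MC903. The basal and hair sums do not measure how many cells divide. Skeletal muscle markers, which come from tissue below the skin, had sums of 49110 and 29980 in vehicle and 9630 and 38309 in MC903, with 1 of 7 lower on both, and were lowest on MC903 replicate 1. None of the macrophage, neutrophil, T cell, dendritic, adipocyte, sebocyte, basal, hair and muscle markers was within the range of the TrpnX controls on all 4 arrays. However, 2 hair markers were on MC903 replicate 1 and 2 dendritic markers were on vehicle replicate 2. The neutrophil marker Camp was on vehicle replicate 2 and MC903 replicate 2, and Cd4 was on 3 of the arrays. The same holds for the keratinocyte stress list, with 0 within that range on any array. The part of cell composition in the difference of the mitotic genes, and in the gap between the MC903 samples, was not tested.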

How the data were processed

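Per the labels' protocols, RNA from skin was labelled by a 3′ in vitro transcription kit. The values deposited are intensity on a linear scale, for 45101 probe sets and 4 arrays, and the sources used here name no software for them. With 2% trimmed from each end, every array had a mean of 500. Probe sets with 1 gene symbol (34945) were kept, symbols were updated by gene ID (34741 matched) to the RefSeq table of GRCm38.p6, and each of 18193 genes took its probe set with the highest mean log2 signal. Values were log2(signal + 16) with no filter. Groups (2 arrays each) come from the labels, and limma 3.58.1 (R 4.3.3) tested their difference (constant prior variance, 2 residual and 2.32 prior degrees of freedom, Benjamini-Hochberg adjustment), which was also run on simulated data. Alternatives were other normalizations, added constants, filters, probe set choices and priors, each array left out, and the replicate number as a block. All 41 members could be named, and of each other cell cycle list the 2 genes with the highest mean signal. The members and lists were chosen with earlier results of these data known. The number of arrays limits the precision.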

Additional observations from a re-analysis of the deposited data

How the results depend on the processing

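With 2 arrays per group, the precision of each difference is limited, and MC903 replicate 1 sets much of its size. The count of the 41 genes called by limma was 0 under all 16 alternatives, the smallest adjusted p of any of them ranging from 0.0836 (without the dimmest 50% of genes, where 34 of the 41 were tested) to 0.618 (without vehicle replicate 1). Genes higher on both MC903 arrays numbered 35 to 39 with all 41 tested and the MC903 arrays kept, 37 and 40 with MC903 replicate 1 or 2 left out, and 30 of 34 without the dimmest 50%. The count lower on both went from 1 to 0 when probe sets were averaged, where Ttk differed by 0.090 and Tacc3 by -0.013. The median difference of 0.81 ranged from 0.35 without MC903 replicate 1 to 1.15 without MC903 replicate 2. With single arrays left out, Cdca3 ranged from -0.010 (without MC903 replicate 1) to 1.11, Tacc3 from -0.016 (without MC903 replicate 1) to 0.75 and Melk from -0.017 (without vehicle replicate 2) to 1.29. The cause was not tested. The gap between the MC903 arrays cannot be given with either left out.

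Over all genes, 0 called became 3 with centring on array medians, 70 with an added constant of 64, 42 and 177 without the dimmest 25% and 50% of genes, 12 with averaged probe sets, 168 with a prior that follows the signal, and 5 with probe sets chosen by mean linear signal (added after the data were seen). It stayed 0 without each array. The fit with the replicate number as a block also called 0 genes, and 0 of the 41, with a median difference of 0.81. The numbers share no stated animal, batch or day, and same-numbered samples deviated with a correlation of -0.06 over 18193 genes.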
